A study of Mus musculus with 24 samples.

Results

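Mouse alveolar macrophages exposed to lipopolysaccharide (LPS) at postnatal day 3 (D3) were compared with those exposed at postnatal day 1 (D1). The comparison rests on 5 of the 24 RNA-seq libraries of the series, 2 of D3 LPS and 3 of D1 LPS, taken by their labels. Per the labels, lavaged airway cells of several mice were pooled and then cultured with Escherichia coli LPS at 400 ng/mL for 4 h. The same 2 ages without LPS (3 D3 control libraries and 2 D1 control libraries) were used to set the age difference beside that of unstimulated cells. The labels used here give neither strain nor sex of the mice. They also do not say whether libraries of 1 group came from separate pools of animals. Every p-value therefore refers to the spread among libraries of the same group alone. That spread was estimated over all 24 libraries unless another set is named, and part of it may be technical.

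Alveolar macrophages take up surfactant, particles and microbes in the air spaces. They derive mostly from fetal monocytes that mature around birth, a step known to depend on GM-CSF and the transcription factor PPARγ, and in mice the mature cells carry Siglec-F and CD11c. LPS binds CD14 and TLR4 and switches on cytokine and chemokine genes through NF-κB, and interferon β through IRF3, which in turn raises interferon-stimulated genes.

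The 5 libraries held 18.2 to 21.3 M counts. Leukocyte and macrophage transcripts were present in all 5: Ptprc at 92.7 to 179 FPKM, Lyz2 at 2235 to 5478 FPKM, Marco at 279 to 1019 FPKM and Siglecf at 5.97 to 19 FPKM. The libraries differed in how strongly GC-rich transcripts were represented. This GC deviation (log2, the 10% of genes richest in GC minus the 10% poorest) was 0.09 and 1.59 in D3 LPS libraries, against 0.28, 2.84 and 2.36 in D1 LPS libraries. Values with that deviation as a covariate are therefore given beside the main ones, and its part in the results without the covariate was not tested further.

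Of 11774 genes tested, 50 passed between D3 LPS and D1 LPS (edgeR quasi-likelihood test over all 24 libraries, adjusted p under 0.05), which is 0.425% of them. They comprised 18 higher at D3 (0.153%) and 32 lower at D3 (0.272%). The lower genes included 12 interferon-inducible genes, the chemokine genes Ccl7 and Ccl6 and the airway secretory gene Scgb3a2; the higher ones included the alveolar macrophage genes Siglecf and Ear1 and 4 Y-linked genes. With the GC covariate 318 genes passed (2.70%), 130 higher (1.10%) and 188 lower (1.60%), and all 50 were among them. DESeq2 called 188 genes (1.66%), which also held all 50. The count rests on few libraries: without D3 LPS replicate 1 it was 6 (Cxcr1, Ddx3y, Eif2s3y, Kdm5d, Reg3g and Xist), and without D3 LPS replicate 2 it was 8 (the same 6 with Gpr155 and Uty). A fit to the 5 libraries alone called 0 genes (edgeR, 656 at an unadjusted p under 0.05). None of the 50 changed sign in any of these fits.

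Interferon-inducible genes were lower at D3. Of the 39 tested members of an interferon response list, 8 fell and 0 rose, namely Usp18, Oas3, Ifit3b, Ifit3, Irf7, Slfn5, Cmpk2 and Ifi47. The list's median log2 fold change was -1.14, against -0.01 over all tested genes. In 29 of the 39 every D3 LPS library lay below every D1 LPS library, where 8.42% of all tested genes did so. With the GC covariate 26 members passed, all lower at D3, and the median was -0.99. DESeq2 called 17, all lower. Without the libraries with a GC deviation beyond 1 the median was -1.06, but that fit left 1 D3 LPS and 1 D1 LPS library. None of the 8 passed when either D3 LPS library was left out.

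The 250 bases before the transcription start are shown for 3 of the interferon-inducible genes that fell. The signal that these genes answered here was not tested. Capitals mark matches, on either strand, to 2 copies of GAAA with any 2 bases between them, the core of the interferon-stimulated response element. The sequences are from RefSeq (GRCm38.p6) and read 5′ to 3′ in the direction of transcription: Ifit3 at chr19:34583279-34583528 on the + strand, Oas3 at chr5:120777660-120777909 on the - strand and Slfn5 at chr11:82951852-82952101 on the + strand.
Ifit3: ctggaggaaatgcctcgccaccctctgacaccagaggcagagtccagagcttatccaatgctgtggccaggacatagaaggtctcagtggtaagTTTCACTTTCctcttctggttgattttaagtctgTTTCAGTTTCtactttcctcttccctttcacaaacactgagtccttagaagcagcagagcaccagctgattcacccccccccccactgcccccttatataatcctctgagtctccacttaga
Oas3: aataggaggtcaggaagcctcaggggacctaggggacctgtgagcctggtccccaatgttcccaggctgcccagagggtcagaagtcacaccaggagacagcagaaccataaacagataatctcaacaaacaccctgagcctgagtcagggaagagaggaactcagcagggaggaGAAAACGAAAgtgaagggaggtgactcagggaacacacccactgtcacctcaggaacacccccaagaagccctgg
Slfn5: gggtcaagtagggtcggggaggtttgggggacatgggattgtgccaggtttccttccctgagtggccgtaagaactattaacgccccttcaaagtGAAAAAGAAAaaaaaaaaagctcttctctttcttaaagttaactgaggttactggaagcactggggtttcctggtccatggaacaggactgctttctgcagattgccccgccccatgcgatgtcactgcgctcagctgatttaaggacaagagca
Ifit3 held 2 matches, the first of them starting 156 bases before the transcription start. Oas3 and Slfn5 held 1 match each, 75 and 155 bases before it. Of the 8 genes that fell, 7 had an entry in the promoter table, and 4 of these 7 (57.1%; Ifit3, Ifit3b, Oas3 and Slfn5) held a match. Among the other interferon response genes tested, 13 of 23 with an entry held one (56.5%), and among all 27025 genes with an entry 936 did (3.5%).

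Usp18, a protease that removes ISG15 and dampens interferon receptor signalling, stood at 44.5 and 48.9 CPM in D3 LPS libraries, against 183, 179.8 and 199 CPM in D1 LPS libraries. Both D3 libraries lay far below all 3 of D1, and the level was 4.01-fold lower in D3 LPS (SE 0.34 on the log2 scale, adjusted p = 0.00728). Oas3, which makes the 2′-5′ oligoadenylates that activate RNase L, was at 23.3 and 23.8 CPM in D3 LPS, against 88, 98.7 and 90.2 CPM in D1 LPS (log2 -1.97 ± 0.35, adjusted p = 0.0104). Ifit3, an antiviral protein that binds IFIT1, averaged 89.4 ± 2.7 CPM in D3 LPS (SD, n = 2) and 285 ± 20.6 CPM in D1 LPS (SD, n = 3). Its log2 fold change was -1.67 ± 0.28 (adjusted p = 0.00638). Its near-identical copy Ifit3b was at 22.1 and 18.7 CPM in D3 LPS, against 70.8, 63.2 and 68.8 CPM in D1 LPS; reads of the pair could have been split by the counting, so their separate levels are uncertain.

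Irf7, the transcription factor that amplifies interferon α and β production, was at 37.7 and 37.4 CPM in D3 LPS, against 101, 148 and 101 CPM in D1 LPS (log2 -1.64 ± 0.29, adjusted p = 0.0104). Cmpk2, a mitochondrial nucleotide kinase induced with the inflammasome response, was at 228 and 188 CPM in D3 LPS, against 680.3, 535 and 581 CPM in D1 LPS (log2 -1.53 ± 0.31). Ifi47, an interferon-inducible GTPase, was at 48.6 and 43.6 CPM in D3 LPS, against 137, 97.8 and 113 CPM in D1 LPS (log2 -1.33 ± 0.27). For each of these genes the D3 and D1 LPS libraries did not overlap.

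Of the Schlafen genes, an interferon-inducible family with members that restrain cell growth and viral translation, Slfn1, Slfn4 and Slfn5 fell. Slfn1 was at 6 and 6.22 CPM in D3 LPS, against 40.1, 36 and 34.3 CPM in D1 LPS (log2 -2.59 ± 0.42, adjusted p = 0.00612). Slfn4 was at 24.7 and 19 CPM in D3 LPS, against 121, 95.3 and 78.2 CPM in D1 LPS (log2 -2.17 ± 0.31). Slfn5 was at 176 and 137 CPM in D3 LPS, against 566, 412 and 437 CPM in D1 LPS (log2 -1.59 ± 0.30). Schlafen genes are close paralogs, so reads shared among them are a source of uncertainty. Outside the list, Ifi209, of the paralogous Ifi200 family of DNA sensors, was at 44.1 and 30.5 CPM in D3 LPS, against 250.0, 132 and 206 CPM in D1 LPS (log2 -2.39 ± 0.42). Nlrc5, the transactivator of MHC class I genes, averaged 8.82 ± 0.841 CPM in D3 LPS (SD, n = 2) and 29.4 ± 3.56 CPM in D1 LPS (SD, n = 3) (log2 -1.74 ± 0.33).

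Ifnb1, which encodes interferon β itself, was at 4.8 and 4.59 CPM in D3 LPS, against 14.6, 14.3 and 14.5 CPM in D1 LPS. The libraries did not overlap, but the difference did not pass (log2 -1.62 ± 0.66, adjusted p = 0.531; 0.0573 with the GC covariate), while DESeq2 called it (adjusted p = 0.00702). Several other interferon genes also missed the threshold and passed in other fits. Rsad2, the antiviral protein viperin, was at 1471 and 1115 CPM in D3 LPS, against 3541, 2166 and 2846 CPM in D1 LPS (adjusted p = 0.154, and 0.000144 with the covariate). Mx1, a dynamin-like GTPase that blocks influenza virus, was at 31.1 and 27.7 CPM in D3 LPS, against 107, 86.4 and 88 CPM in D1 LPS (adjusted p = 0.0682, and 0.000176 with the covariate). Isg15, a ubiquitin-like modifier, was at 134 and 491 CPM in D3 LPS, against 177, 2223 and 1654 CPM in D1 LPS; its groups overlapped, and within each group its level was highest in the library with the largest GC deviation. The members did not all lie in 1 direction: Gbp2, a guanylate-binding protein, was at 349.6 and 282 CPM in D3 LPS, against 275, 189 and 242 CPM in D1 LPS, and Ifih1, the RNA sensor MDA5, had a log2 fold change of 0.33; neither passed.

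**Figure D1:**
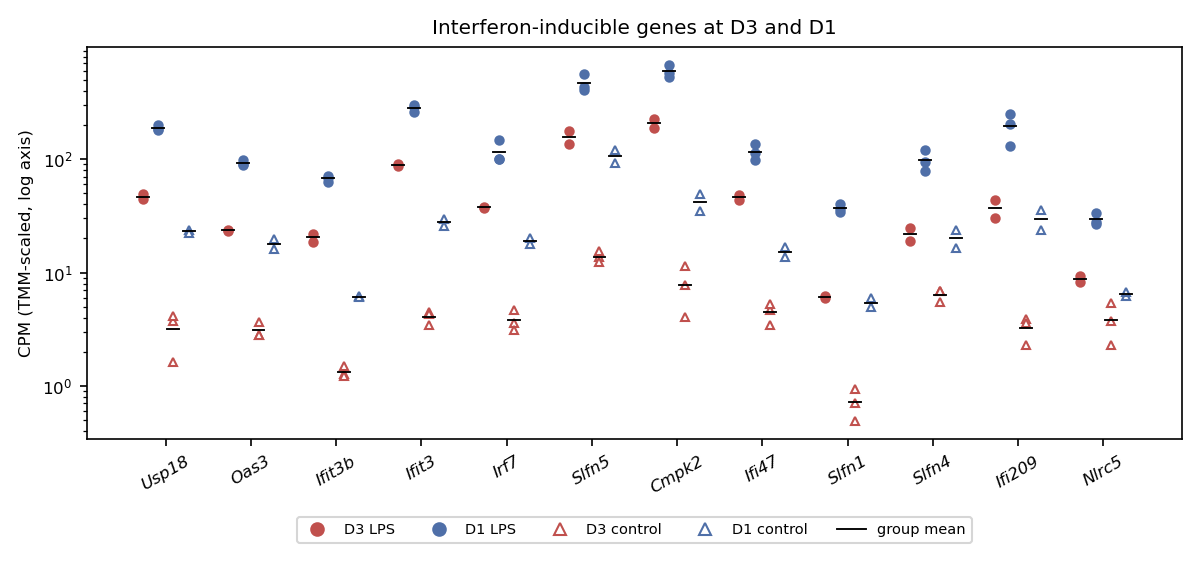
TMM-scaled CPM (log axis) of 12 interferon-inducible genes that passed, for each library of D3 LPS, D1 LPS, D3 control and D1 control, with bars at group means. All D3 LPS libraries sit below all D1 LPS libraries, as for Ifit3 at 87.5 and 91.3 CPM in D3 LPS against 289.7, 262 and 303 CPM in D1 LPS, and the control libraries show the same order at lower levels.

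Among 18 tested proinflammatory cytokines none passed in the edgeR test, while 9 had an unadjusted p under 0.05 and 5 were called by DESeq2. Adding the GC covariate gave 5 calls, all lower at D3: Il33, Il23a, Il6, Il1b and Il1a. The list's median log2 fold change was -0.81, and -0.37 with the GC covariate. In 8 members every D3 LPS library lay below every D1 LPS library, where 8.42% of all tested genes did so. In 1 every D3 library lay above, against 12.0% of all tested genes. Il1b was at 2666 and 2738 CPM in D3 LPS, against 6149, 5624 and 5829 CPM in D1 LPS (log2 -1.12 ± 0.28, adjusted p = 0.0922; 0.0104 with the GC covariate). Il6 was at 531 and 389 CPM in D3 LPS, against 1347, 912 and 929 CPM in D1 LPS (log2 -1.21 ± 0.32, adjusted p = 0.127; 0.000114 with the covariate). For both, the groups did not overlap although the main test was not passed. Tnf was at 1639 and 2985 CPM in D3 LPS, against 2673, 6352 and 5937 CPM in D1 LPS. These groups overlapped, and the log2 fold change was -1.11 ± 0.73 (adjusted p = 0.815), or -0.43 with the covariate. Il10, the main anti-inflammatory cytokine of macrophages, was at 4.51 and 4.11 CPM in D3 LPS, against 17.7, 13.8 and 19.2 CPM in D1 LPS (log2 -1.97 ± 0.59, adjusted p = 0.204; 0.00149 with the covariate).

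Of 18 tested chemokines, Ccl7 and Ccl6 fell and none rose; with the GC covariate 6 passed, all lower at D3. Ccl7, a monocyte attractant, was at 1.01 and 1.24 CPM in D3 LPS, against 13.2, 9.12 and 8.28 CPM in D1 LPS (log2 -3.17 ± 0.66, adjusted p = 0.0356). Ccl6, a chemokine abundant in mouse macrophages, was at 1935 and 1722 CPM in D3 LPS, against 4107, 3837 and 3618 CPM in D1 LPS (log2 -1.08 ± 0.23, adjusted p = 0.0424). Neither passed when any 1 of the 5 LPS libraries was left out. Ccl2, the neighbour of Ccl7 in the chemokine cluster, was at 11.1 and 8.75 CPM in D3 LPS, against 43.6, 44.3 and 32.7 CPM in D1 LPS (adjusted p = 0.0722; 0.000448 with the covariate). Cxcl10, the interferon-inducible T cell attractant, was at 838 and 1031 CPM in D3 LPS, against 1744, 2913 and 2803 CPM in D1 LPS (log2 -1.41 ± 0.39, adjusted p = 0.133).

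The upstream LPS sensing genes leaned in neither direction as a list. Of 34 tested genes of Toll-like receptor signalling none passed (edgeR, 3 at an unadjusted p under 0.05; DESeq2 called 0), and their median log2 fold change was -0.01. Tlr4 was at 44.2 and 33.8 CPM in D3 LPS, against 47, 26.5 and 39.5 CPM in D1 LPS (log2 0.05 ± 0.33; -0.22 with the GC covariate). Cd14 was at 265 and 424 CPM in D3 LPS, against 295, 693 and 461 CPM in D1 LPS (log2 -0.49 ± 0.44). Both genes overlapped between the ages in LPS-treated cells. In control cells the log2 fold change was 0.24 ± 0.33 for Tlr4 and -0.97 ± 0.43 for Cd14 (edgeR adjusted p = 0.584 for Cd14). With the GC covariate the control value of Cd14 was -0.77 ± 0.20 (edgeR adjusted p = 0.0227). With the covariate 2 members of the list passed, Tlr13 higher and Tlr3 lower at D3. Of 30 tested negative regulators of the pathway none passed in the main edgeR test (6 at an unadjusted p under 0.05; DESeq2 called 2) and 4 did with the covariate, all lower at D3: Socs3, Dusp1, Zfp36l1 and Il10.

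Several other genes fell. Edn1, which encodes the vasoconstrictor endothelin 1, was at 14 and 11.1 CPM in D3 LPS, against 75.9, 62 and 57.5 CPM in D1 LPS (log2 -2.38 ± 0.45, adjusted p = 0.0162). Serpinb2, the plasminogen activator inhibitor PAI-2, was at 44.7 and 33.9 CPM in D3 LPS, against 187, 128 and 174 CPM in D1 LPS (log2 -2.05 ± 0.37, adjusted p = 0.0121). F3, the tissue factor that starts clotting, was at 1.68 and 0.765 CPM in D3 LPS, against 10.7, 12 and 8.63 CPM in D1 LPS (log2 -3.09 ± 0.51, adjusted p = 0.00681; -3.76 without D3 LPS replicate 1). In all 3 genes the ages were apart in every library. Mmp19, a matrix metalloproteinase, averaged 34.4 ± 4.28 CPM in D3 LPS (SD, n = 2) and 84.8 ± 13.7 CPM in D1 LPS (SD, n = 3) (log2 -1.30 ± 0.20). Mxd1, a partner of MAX that opposes MYC, averaged 13 ± 0.211 CPM in D3 LPS (SD, n = 2) and 46.5 ± 4.36 CPM in D1 LPS (SD, n = 3) (log2 -1.84 ± 0.33). The small GTPase gene Arl4c fell by 1.70 on the log2 scale, the apolipoprotein L gene Apol7c by 4.04 and Scel, known from cornified epithelium, by 2.67. P2ry10, a receptor for lysophosphatidylserine, had 3 counts over both D3 LPS libraries and 88 over the 3 D1 LPS libraries, a D1 to D3 ratio of 21.6 (95% counting interval 7.16 to 107).

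Genes of alveolar macrophage identity leaned the other way. Of 38 tested members 2 rose, Siglecf and Ear1, and none fell. In 15 members every D3 LPS library lay above every D1 LPS library and in 3 below, and the list's median log2 fold change was 0.18. Over all tested genes 12.0% lay above and 8.42% below. Siglecf, the sialic acid-binding lectin that marks these cells, was at 49.6 and 46.5 CPM in D3 LPS, against 19, 17.7 and 18.5 CPM in D1 LPS (log2 1.38 ± 0.26, adjusted p = 0.0162). Ear1, of the eosinophil-associated ribonuclease family, was at 220.1 and 174 CPM in D3 LPS, against 102, 69.7 and 72.2 CPM in D1 LPS (log2 1.28 ± 0.27, adjusted p = 0.0411). Its paralog Ear2, which may share reads with it, was at 860.2 and 849 CPM in D3 LPS, against 501, 404 and 454 CPM in D1 LPS (log2 0.91 ± 0.24, adjusted p = 0.105). With the GC covariate 7 members passed, all higher at D3: Siglecf, Ear1, Ear2, Itgax, Ctsk, Krt79 and Cd2. Siglecf did not pass when any 1 of the 5 LPS libraries was left out, while Ear1 did not pass without either D3 LPS library, D1 LPS replicate 2 or D1 LPS replicate 3. Without the libraries with a GC deviation beyond 1 the log2 fold change of Siglecf was 1.35, with 1 D3 LPS and 1 D1 LPS library left.

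The other identity genes named did not pass. Itgax, which encodes CD11c, was at 466 and 557 CPM in D3 LPS, against 288, 359.9 and 340.1 CPM in D1 LPS (adjusted p = 0.707; 0.0279 with the GC covariate). Pparg, which encodes the transcription factor of alveolar macrophage development, was at 66 and 68.8 CPM in D3 LPS, against 43.9, 38.1 and 41.8 CPM in D1 LPS (log2 0.71 ± 0.23, adjusted p = 0.308). Both were higher in each D3 library than in any of D1. Fabp4, a lipid chaperone and PPARγ target, averaged 188 ± 9.36 CPM in D3 LPS (SD, n = 2) and 226 ± 10.1 CPM in D1 LPS (SD, n = 3) (log2 -0.26 ± 0.30). The scavenger receptor gene Marco was at 713 and 1919 CPM in D3 LPS, against 505, 1589 and 1437 CPM in D1 LPS, and the carbonic anhydrase gene Car4 at 254 and 508 CPM in D3 LPS, against 303, 703 and 634 CPM in D1 LPS. For these 2 genes the spread within each age exceeded the difference between the ages, and their direction depended on the fit.

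Markers of fetal monocytes and of other macrophages had a median below 0. Of 34 listed, 19 were tested, 2 fell and none rose, and the median log2 fold change was -0.95. In 11 of the 19 every D3 LPS library lay below every D1 LPS library, and in none above, against 8.42% and 12.0% of all tested genes. With the GC covariate 7 members passed, all lower at D3, among them F13a1, Maf, Ms4a6c, Ccr1 and Klf4. F13a1, the coagulation factor XIII A chain of monocytes, was at 1.01 and 1.43 CPM in D3 LPS, against 16, 7.82 and 7.58 CPM in D1 LPS (adjusted p = 0.0976; 0.000304 with the covariate). In bulk libraries, fewer cells of a type and less RNA per cell cannot be told apart.

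**Figure D2:**
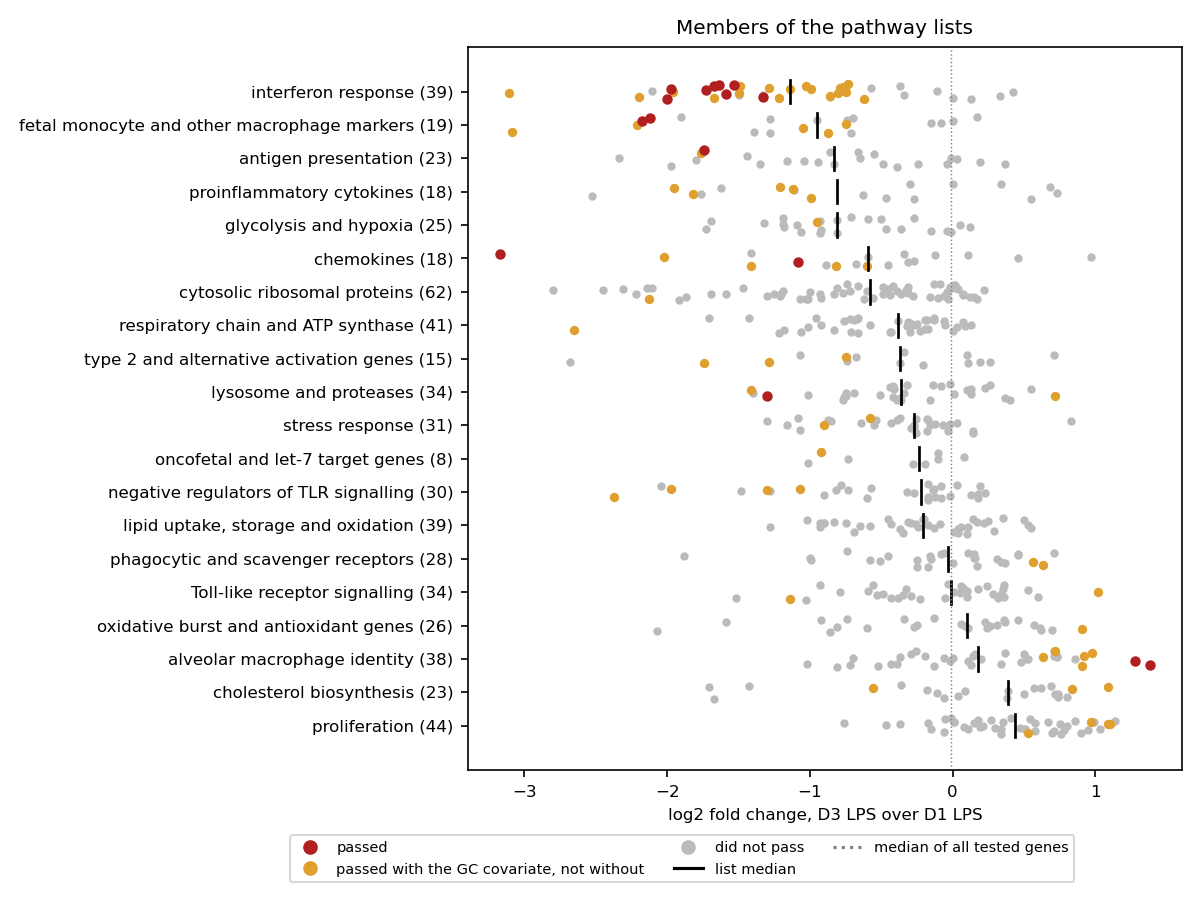
Log2 fold change of D3 LPS over D1 LPS for each tested member of 20 pathway lists, with list medians as bars, the number tested in parentheses and colours for genes that passed, passed with the GC covariate but not without it, or did not pass. The interferon list has the lowest median, -1.14, and the proliferation list the highest, 0.44.

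Proliferation genes had the highest median of the pathway lists, 0.44, but none of 44 tested members passed (edgeR, 12 at an unadjusted p under 0.05; DESeq2 called 3, all higher). Adding the GC covariate gave 4 calls, all higher at D3: Ube2c, Cdk1, Ccnb2 and Ccnb1. In 19 of the 44 every D3 LPS library lay above every D1 LPS library, where 12.0% of all tested genes did so. Mki67, which encodes the proliferation antigen Ki-67, was at 615 and 469.9 CPM in D3 LPS, against 359, 243 and 272 CPM in D1 LPS (log2 0.90 ± 0.28, adjusted p = 0.263). Ccnb1, the mitotic cyclin B1, was at 46.6 and 42.7 CPM in D3 LPS, against 26.6, 13.4 and 23.2 CPM in D1 LPS (adjusted p = 0.0558; 0.00711 with the covariate). Cholesterol biosynthesis genes had a median of 0.39, and none of 23 passed in the main edgeR test (11 at an unadjusted p under 0.05, while DESeq2 called 1). With the covariate 3 passed, among them Sqle and Stard4, higher at D3. In 12 of the 23 every D3 LPS library lay above every D1 LPS library, against 12.0% of all tested genes.

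Several other genes rose. Cxcr1, a receptor for neutrophil-attracting chemokines, was at 19.3 and 20.1 CPM in D3 LPS, against 6.09, 5.73 and 4.55 CPM in D1 LPS (log2 1.85 ± 0.27, adjusted p = 0.00267). It passed in every fit that left out 1 LPS library. Lepr, the leptin receptor, was at 14.3 and 14.2 CPM in D3 LPS, against 5.11, 5.73 and 1.75 CPM in D1 LPS (log2 1.76 ± 0.37, adjusted p = 0.0387). H2-M2, a non-classical MHC class I gene, averaged 329.9 ± 0.812 CPM in D3 LPS (SD, n = 2) and 138 ± 22.7 CPM in D1 LPS (SD, n = 3) (log2 1.25 ± 0.21, adjusted p = 0.00738). Lilra5, an activating immunoglobulin-like receptor, averaged 53.6 ± 0.815 CPM in D3 LPS (SD, n = 2) and 19.3 ± 2.65 CPM in D1 LPS (SD, n = 3) (log2 1.48 ± 0.28). Mr1, which presents microbial vitamin B metabolites to T cells, was at 6.05 and 4.83 CPM in D3 LPS, against 2.37, 1.35 and 1.98 CPM in D1 LPS (log2 1.52 ± 0.28).

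Ncoa4, the receptor that delivers ferritin to autophagy, was at 509 and 472 CPM in D3 LPS, against 238, 192 and 224 CPM in D1 LPS (log2 1.17 ± 0.25, adjusted p = 0.0424). Gpr155, a lysosomal membrane protein, rose by 1.76 ± 0.28 on the log2 scale, Kctd12b by 1.79 ± 0.35, the adhesion receptor gene Adgrl3 by 1.64 ± 0.35 and Lipf, which encodes gastric lipase, by 2.43 ± 0.42. Plet1os, a transcript antisense to Plet1, was at 104 and 84.3 CPM in D3 LPS, against 41.6, 31.4 and 37.8 CPM in D1 LPS; use of strand in the counting is not stated, so its reads and those of Plet1 cannot be told apart. The predicted gene Gm40932 also rose, at 2.79 and 2.2 CPM in D3 LPS against 0.722, 0.747 and 0.35 CPM in D1 LPS.

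Type 2 and alternative activation genes gave no call among 15 tested (edgeR, 4 at an unadjusted p under 0.05; DESeq2 called 2). The covariate fit called 3, all lower at D3: Arg1, Irf4 and Klf4. Arg1, arginase 1, was at 3.46 and 4.11 CPM in D3 LPS, against 11.7, 9.87 and 16.4 CPM in D1 LPS (log2 -1.74 ± 0.47, adjusted p = 0.129; 0.0142 with the covariate). Chil3, a chitinase-like protein, overlapped between the ages, at 269 and 216 CPM in D3 LPS against 388, 247 and 305 CPM in D1 LPS. Retnla had 1 count in the D3 LPS libraries and 11 in those of D1 LPS, too few for a fold. Among 28 phagocytic and scavenger receptors tested none passed in the main edgeR test (1 at an unadjusted p under 0.05; DESeq2 called 0), the median was -0.03, and Itgax and Fcgr3 were higher with the covariate. The mannose receptor gene Mrc1 was at 921 and 738 CPM in D3 LPS, against 609.7, 414 and 500.5 CPM in D1 LPS (log2 0.71 ± 0.26, adjusted p = 0.419), and Fcgr1, the high-affinity IgG receptor, at 5.48 and 14.8 CPM in D3 LPS, against 11, 15 and 24.7 CPM in D1 LPS.

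Several lists had low medians with few or no calls, and their medians differed between fits. The medians were -0.83 for antigen presentation (23 tested, 1 lower, Nlrc5), -0.81 for glycolysis and hypoxia (25 tested), -0.58 for cytosolic ribosomal proteins (62 tested) and -0.38 for the respiratory chain (41 tested); none of the last 3 lists held a passed gene (edgeR; 2, 7 and 4 genes at an unadjusted p under 0.05, and 1, 1 and 2 called by DESeq2). With the GC covariate these medians were -0.17, -0.16, -0.05 and -0.13, and without the libraries with a GC deviation beyond 1 they were -0.28, -0.20, -0.24 and -0.36. All 41 respiratory chain genes were below 0 in that last fit, which left 1 D3 LPS and 1 D1 LPS library, so the genes share that 1 pair of libraries. The summed level of the ribosomal protein genes was 10683 and 18628 CPM in D3 LPS, against 11838, 29370 and 25660 CPM in D1 LPS, so it was lowest in each group in the library with the smallest GC deviation. Lysosome and protease genes held 1 call among 34, Mmp19, and neither the edgeR test without the covariate nor DESeq2 made a call among 39 genes of lipid handling, 26 of the oxidative burst, 31 of the stress response and 8 oncofetal genes, of which 4, 3, 7 and 1 had an unadjusted edgeR p under 0.05. With the GC covariate Mt2 of the oxidative burst list was called higher, and Hspa5 and Fos of the stress list and Plagl1 of the oncofetal list lower.

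The pools differed in sex-linked transcripts. Xist, the RNA of the inactive X chromosome in females, had 0 and 0.335 CPM in D3 LPS, against 443, 228 and 239 CPM in D1 LPS. The Y-linked genes ran the other way: Ddx3y was at 260.3 and 187 CPM in D3 LPS, against 45.9, 22.7 and 47.5 CPM in D1 LPS, and Eif2s3y at 154 and 114 CPM in D3 LPS, against 24, 19.5 and 15.7 CPM in D1 LPS. Kdm5d and Uty rose too (log2 2.66 ± 0.32 and 3.04 ± 0.42; Uty 2.27 without D3 LPS replicate 1). The control pools showed the same split, with Xist at 0.0488, 1.12 and 1.97 CPM in D3 control, against 453 and 241 CPM in D1 control. The D3 pools were thus nearly free of Xist and the D1 pools were not, and the sex makeup of the pools and age cannot be told apart in this comparison. Of the 50 genes that passed, 42 are autosomal, 4 X-linked (Xist, P2ry10, Slc6a14 and Kctd12b) and 4 Y-linked.

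Some transcripts known from other cells fell. Scgb3a2, a secretoglobin of airway secretory cells, was at 2.83 and 2.25 CPM in D3 LPS, against 51.7, 36 and 31.4 CPM in D1 LPS (log2 -3.96 ± 0.65, adjusted p = 0.00638). Reg3g, an antimicrobial lectin of epithelia, was at 5.81 and 4.64 CPM in D3 LPS, against 70.9, 43.4 and 45.8 CPM in D1 LPS (log2 -3.35 ± 0.36, adjusted p = 0.000344), and passed in every fit that left out 1 LPS library. Slc6a14, an amino acid transporter of epithelia, fell by 3.91 ± 0.63 on the log2 scale (-4.80 without D3 LPS replicate 1). Agr2, a disulfide isomerase of mucus-secreting cells, had 1 count in the D3 LPS libraries and 223 in those of D1 LPS, a D1 to D3 ratio of 164 (95% counting interval 29.2 to 6522). Hbb-bs, an adult β-globin gene with a near-identical neighbour, Hbb-bt, was at 2.59 and 3.35 CPM in D3 LPS, against 26.3, 49.1 and 35.3 CPM in D1 LPS (log2 -3.63 ± 0.73, adjusted p = 0.0288).

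For the whole lists, 12 of 23 lung epithelial markers were tested and 1 passed (Scgb3a2). With the GC covariate 4 passed, all lower at D3. In 8 of the 12 every D3 LPS library lay below every D1 LPS library and in 2 above (Hopx and Epcam), against 8.42% and 12.0% of all tested genes. The list's summed level was 547 and 513 CPM in D3 LPS, against 813, 837 and 763 CPM in D1 LPS. Pdpn made up 79.7% of that sum and did not pass (log2 -0.48). Of 20 neutrophil markers 14 were tested and none passed (edgeR, 7 at an unadjusted p under 0.05; DESeq2 called 3; with the GC covariate 1 passed higher, Cxcr2, and 2 lower), with a sum of 177 and 146 CPM in D3 LPS, against 262, 203 and 229.7 CPM in D1 LPS, of which S100a8 made up 72.4%. The erythroid sum was 115 and 81.3 CPM in D3 LPS, against 147, 152 and 119.5 CPM in D1 LPS, and 73% of it was Tfrc (log2 0.11), which dividing cells also express. Among 5 tested erythroid genes Hbb-bs passed. The medians of the liver, striated muscle and T and NK cell lists were 0.08, 0.00 and -0.07, with 16, 10 and 3 genes tested. Lower medians were those of the endothelial (-0.71), neutrophil (-1.48), lung epithelial (-1.93) and erythroid (-2.68) lists. Of 14 tested neutrophil markers, 10 had every D3 LPS library below every D1 LPS library and 1 above. Over all tested genes 8.42% and 12.0% did so. The T cell genes Cd3e, Cd4 and Cd8a had no count in any of the 5 libraries, and Cd3d, Cd3g, Trac and Trbc1 were at 0 to 0.0997 CPM. Of the endothelial genes Cldn5 and Tie1 had no count, while Vwf was at 23.6 and 52.2 CPM in D3 LPS, against 23.9, 85.3 and 70.1 CPM in D1 LPS, and Pecam1 at 9.32 and 12 CPM in D3 LPS, against 12.3, 16.1 and 26 CPM in D1 LPS; none of 4 tested endothelial genes passed (edgeR, 1 at an unadjusted p under 0.05; DESeq2 called 0). The part of these cells in the falls of interferon, chemokine and monocyte genes was not tested.

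Among gland secretory genes Mucl2 fell. Mucl2, a mucin-like gene of exocrine glands, was at 138 and 94.1 CPM in D3 LPS, against 547, 526 and 256 CPM in D1 LPS (log2 -1.93 ± 0.36, adjusted p = 0.0142). All 8 tested genes of a gland list, secretoglobins with close paralogs among them, were below D1 LPS in both D3 LPS libraries, where 8.42% of all tested genes were. The list's median log2 fold change was -1.87, and all 8 passed with the GC covariate. The list summed to 387 and 295 CPM in D3 LPS, against 1360, 1098 and 901 CPM in D1 LPS, and to 2.8 to 4.11 CPM in D3 control and 8.42 and 8.8 CPM in D1 control. In LPS libraries of later ages the sum was 550.1 and 534 CPM at D7, 11.9 and 11 CPM at D21 and 7.59 and 10 CPM at D49. Control libraries held 16.2 and 16.4 CPM at D7, 1530 to 1820 CPM at D21 and 1333 to 2411 CPM at D49, so the sum was not tied to LPS over all ages. The source of these transcripts was not tested.

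**Figure D3:**
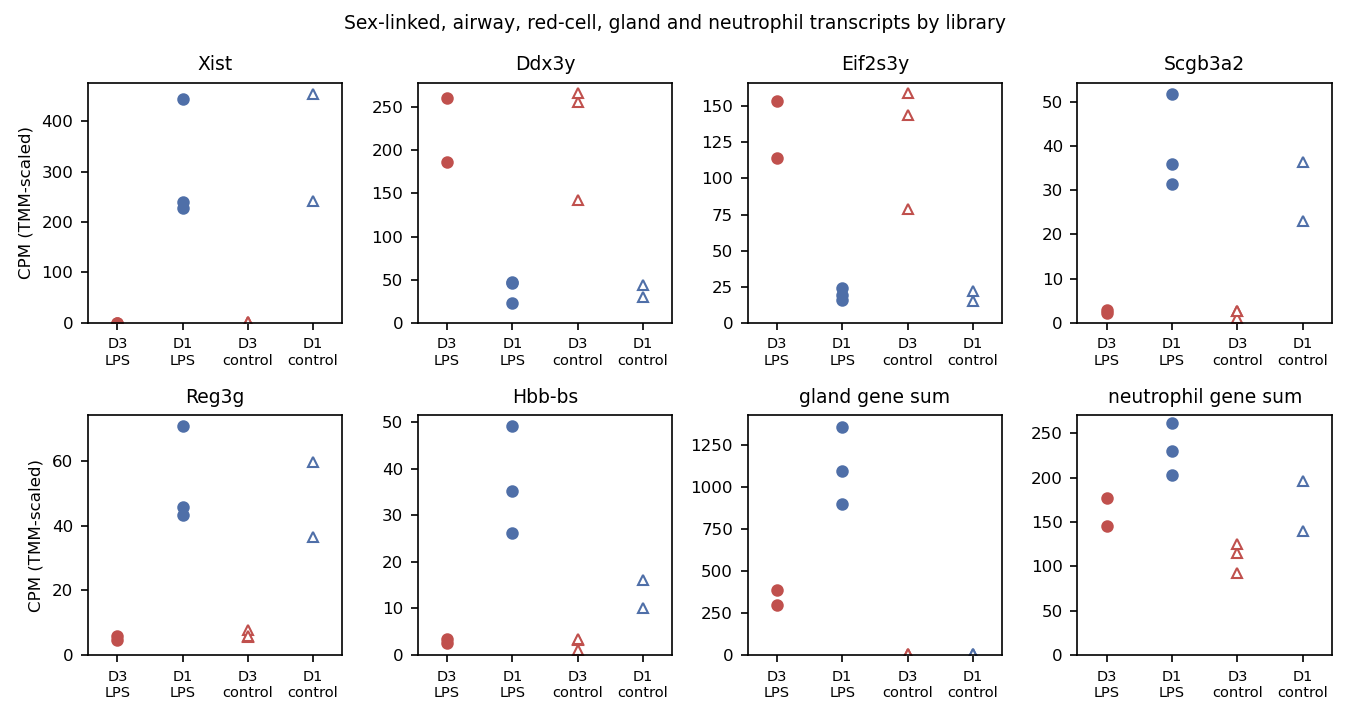
TMM-scaled CPM in each library of D3 LPS, D1 LPS, D3 control and D1 control for Xist, 2 Y-linked genes, 2 epithelial genes, a globin gene, and the summed gland and neutrophil lists (linear axes from 0). Xist is at 0 and 0.335 CPM in D3 LPS and at 228 to 443 CPM in D1 LPS, and the gland sum is 295 to 1360 CPM in these LPS libraries and 2.8 to 8.8 CPM in the control libraries.

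The same age step in unstimulated cells called more genes. Between D3 control and D1 control 197 genes passed (1.67%), 71 higher (0.603%) and 126 lower (1.07%) at D3; the count was 69 without D1 control replicate 1, 94 without D1 control replicate 2 and 104 without D3 control replicate 1. No library is shared with the LPS comparison. Of the 32 genes lower in D3 LPS, 21 also fell in control cells, which is 65.6% of the 32 and 16.7% of the 126. Of the 18 genes higher in D3 LPS, 11 also rose in control cells, which is 61.1% of the 18 and 15.5% of the 71. No gene passed in opposite directions. Genes that passed at both settings included Usp18, Ifit3, Irf7, Slfn5, Serpinb2, Siglecf, Ear1, Lepr, Cxcr1 and the sex-linked Xist, Ddx3y, Eif2s3y, Kdm5d and Uty.

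The interferon genes were lower at D3 already without LPS. In control cells 23 of the 39 passed lower and 1 higher (Iigp1), with a median log2 fold change of -2.17. Ifit3 was at 4.49, 3.44 and 4.32 CPM in D3 control, against 29.7 and 25.7 CPM in D1 control (log2 -2.76, adjusted p = 1.68e-05). The difference between the LPS and the control age steps was tested directly. Of the 39, Rtp4 passed that test: it was at 246 and 211 CPM in D3 LPS, against 319.8, 255 and 294 CPM in D1 LPS, and at 10.3, 15.6 and 8.34 CPM in D3 control, against 76.6 and 65.2 CPM in D1 control (difference of log2 changes 2.29 ± 0.35, adjusted p = 0.0132). For Ifit3 the difference was 1.09 (adjusted p = 1).

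Genes that passed in LPS-treated cells and not in control cells were not shown to differ between the settings, save Mucl2. Mxd1 was at 15.4, 24.8 and 11.4 CPM in D3 control, against 18.3 and 21.7 CPM in D1 control, and its age steps differed by -1.62 (adjusted p = 0.473). Over all genes 11 passed the test of the difference (0.0934%), 1 higher (0.00849%) and 10 lower (0.0849%) in LPS-treated cells, and of the 50 genes Mucl2 alone was among them. That count was 0 without D3 LPS replicate 1, D3 LPS replicate 2 or D1 control replicate 2 (edgeR; 175, 189 and 196 genes at an unadjusted p under 0.05), 3 without D1 control replicate 1, and 5 to 7 without D1 LPS replicate 1 or 2 or any D3 control replicate. DESeq2 called 34 (0.289%) with all libraries. With the GC covariate 52 passed in edgeR, and of the 50 genes Mucl2 and Serpinb2 were among them. For Serpinb2 the difference in that edgeR fit was 1.76 ± 0.34 (adjusted p = 0.00636). Its log2 change there was -2.30 in LPS-treated cells and -4.07 in control cells.

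**Figure D4:**
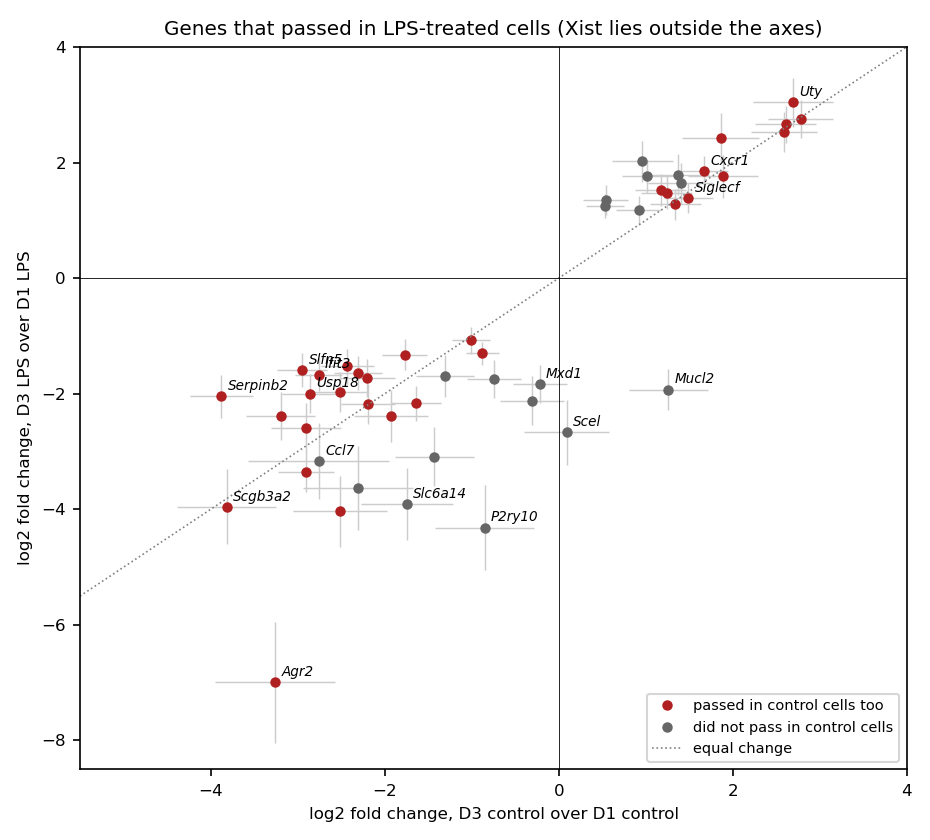
Log2 fold change of D3 LPS over D1 LPS (vertical axis) against that of D3 control over D1 control (horizontal axis) for the genes that passed in LPS-treated cells, with standard errors as bars and a dotted line of equal change. Most genes have the same sign on both axes, while Mucl2 is at -1.93 in LPS-treated cells and 1.26 in control cells.

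The LPS libraries of later ages are set beside those of D1 and D3 as levels, with no test. Ifit3 was at 89.1 and 101 CPM at D7, 41.7 and 44.5 CPM at D21 and 75.3 and 77.3 CPM at D49, all below the 262 CPM of the lowest D1 LPS library. Usp18 was at 25.2 and 23.2 CPM at D7 and at 10.6 to 18.5 CPM at D21 and D49, also below every D1 LPS library. Il1b was at 1504 to 2219 CPM at D7, D21 and D49. Xist was at 0.915 and 0.407 CPM in the D7 LPS libraries and at 366 to 912 CPM in those of D21 and D49.

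Siglecf stood at 66.5 and 62.8 CPM at D7, 127 and 108 CPM at D21 and 142 and 142 CPM at D49, above both D3 LPS libraries. Lepr reached 97.7 and 106 CPM at D49. Mki67 was at 686 and 621 CPM at D7 and at 177 and 199.9 CPM at D49, so its level at D3 lay near its highest over the 5 ages.

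**Figure D5:**
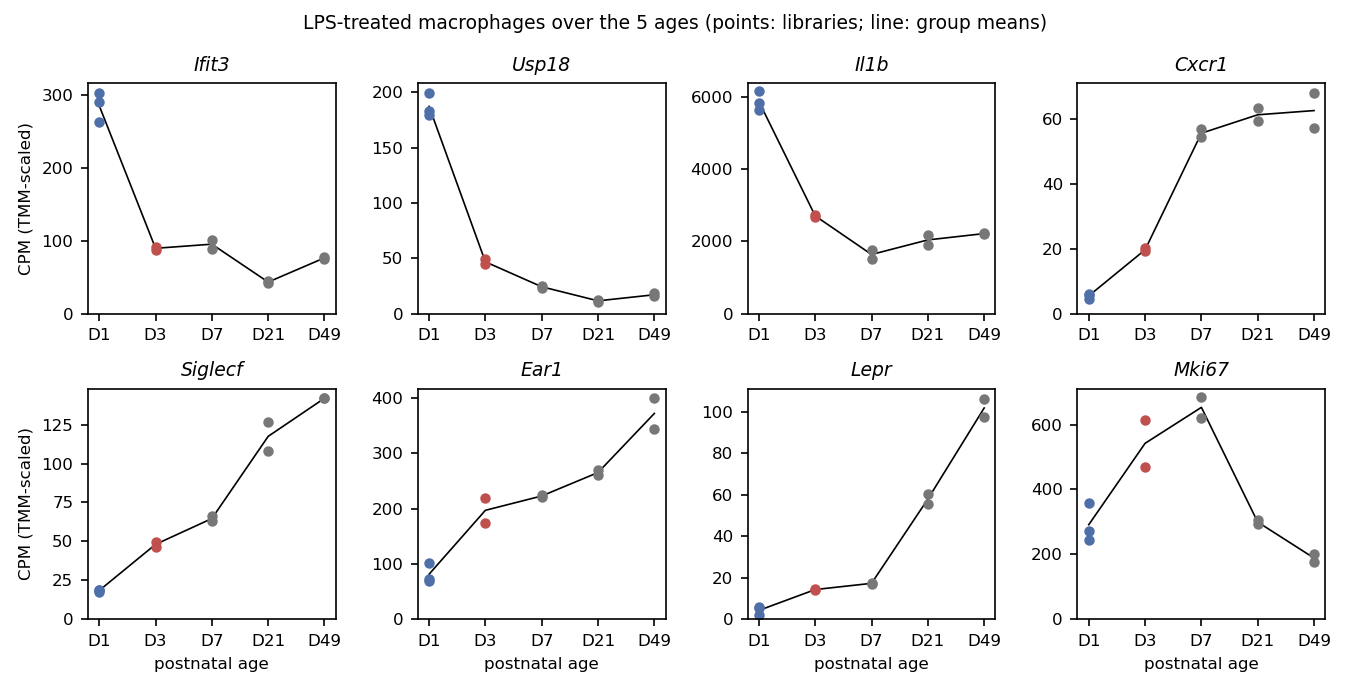
TMM-scaled CPM of 8 genes in the LPS libraries at D1, D3, D7, D21 and D49 (points: libraries; line: group means; axes from 0). Ifit3, Usp18 and Il1b are highest at D1, Siglecf and Lepr are highest at D49, and Mki67 is highest at D7, where it reads 686 and 621 CPM.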

How the data were processed

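The authors deposited whole-number counts per Ensembl gene for 24 libraries, per the file headers; the submitters' processing notes name STAR, DESeq2 and build GRCm39, with no versions, and the counter is not named. Libraries were grouped by the labels. Symbols came from GENCODE M21 (GRCm38). FPKM was computed from counts and exonic lengths, and the 11774 genes reaching 1 FPKM in 2 libraries entered the quasi-likelihood test of edgeR 4.0.16 in R 4.3.3, TMM scaling, 10 group means and Benjamini-Hochberg adjustment; genes with an adjusted p under 0.05 are said to have passed. Adjusted p-values are from this fit unless another is named. CPM is TMM-scaled, fold changes are log2 ± SE, and SEs derive from the F statistic. GC deviation used GENCODE transcripts (97.2% of tested genes) and a prior of 2 counts. Other fits used DESeq2 1.42.0 and limma 3.58.1 on log2(FPKM + 1), other scalings and filters, a replicate block, and each library left out.

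Members, lists and tests were chosen with earlier results of these data known. Genes named were the 12 largest rises and falls with a mean FPKM of at least 5, the 6 of each that also passed with the GC covariate, up to 4 passed members of a list and 23 genes always reported, of which 22 were tested (Ccr2 was not). For completeness the genes that passed are named, except some that are not reported here; members that passed with the covariate but not without it, as well as Isg15, Rsad2, Mx1, Gbp2, Ifih1, Ccl2, Ccnb1, Iigp1 and the markers of other cells that did not pass, were chosen after their values were seen. Code was tested on simulated data. Intervals cover counting error only.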

Additional observations from a re-analysis of the deposited data

Results flagged for a closer look

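The difference between D3 and D1 differed between LPS-treated and control cells for 11 genes (edgeR contrast of the 2 log2 changes, LPS minus control, adjusted p under 0.05). Rtp4, an interferon-inducible chaperone of receptor trafficking, had a difference of 2.29 ± 0.35, since its change was -0.34 in LPS-treated cells and -2.64 in control cells. The gland gene Mucl2 had a difference of -3.19 ± 0.57, with 138 and 94.1 CPM in D3 LPS against 547, 526 and 256 CPM in D1 LPS, and 0.977, 0.688 and 0.922 CPM in D3 control against 0.235 and 0.465 CPM in D1 control.

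The other 9 genes are known from liver: Serpina7 (-11.72), Crp (-10.64), Ugt2b35 (-8.64), Akr1c6 (-7.79), Apcs (-6.12), Slco1b2 (-5.77), Orm1 (-5.26), Tdo2 (-4.95) and Fgb (-4.70). Serpina7, Crp and Ugt2b35 had 0 counts in both D1 control libraries and Akr1c6 and Slco1b2 in 1 of them, so these fitted differences depend on the prior count and are not bounds. Fgb, a fibrinogen chain, was at 7.3 and 7.12 CPM in D3 LPS, against 8.36, 6.73 and 6.82 CPM in D1 LPS, and at 16, 15.6 and 6.7 CPM in D3 control, against 0.517 and 0.465 CPM in D1 control. D1 control thus had the lowest levels of the 4 groups. A liver list of 16 genes, 67.7% of it Trf, summed to 509 and 787 CPM in D3 LPS, against 410.3, 617 and 574 CPM in D1 LPS, and to 679, 1084 and 825 CPM in D3 control, against 295 and 568 CPM in D1 control. The part of liver transcripts in these differences was not tested. Within LPS-treated cells none of these 9 genes passed between D3 and D1 (edgeR; 1 of them, Serpina7, at an unadjusted p under 0.05), and DESeq2 called Serpina7. With 1 library left out, no gene passed the test of the difference without D3 LPS replicate 1, D3 LPS replicate 2 or D1 control replicate 2 (edgeR; 175, 189 and 196 genes at an unadjusted p under 0.05).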

How the results depend on the processing

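The 50 genes called between D3 LPS and D1 LPS became 318 with the GC covariate, 200 with an offset fitted smoothly on GC content, 84 without the 10 libraries with a GC deviation beyond 1 (1 D3 LPS and 1 D1 LPS library are then left, assumed to vary like the other groups; 35 of the 50 kept their call), 239 without the filter on low values, 188 with DESeq2, 171 with limma and 0 with the 5 libraries alone (edgeR, 656 at an unadjusted p under 0.05). The 197 control calls became 478, 335, 362 and 403 in the first 4 of these, and the 11 calls of the difference became 52, 30, 3 and 73, with 34 by DESeq2 and 7 by limma. Limma called 41 higher and 130 lower between D3 LPS and D1 LPS, and the fit without the filter called 42 and 197.

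Leaving out 1 library at a time gave 6 to 64 calls between D3 LPS and D1 LPS, 69 to 191 between the controls and 0 to 8 for the difference (edgeR; at an unadjusted p under 0.05 at least 168 genes in each of these fits of the difference). None of the 50 genes changed sign in any fit. With the replicate number as a block 55 genes were called between D3 LPS and D1 LPS, 45 of them among the 50 (Arl4c, Ccl7, Ear1, Lepr and Ncoa4 lost their call), and 4 for the difference, Mucl2 not among them; block and GC covariate together gave 287, 450 and 52. The labels name no shared batch. The deviations of libraries with the same number had Pearson correlations of 0.75 and 0.6 across genes, but with 2 D3 LPS libraries these deviations mirror each other by construction, and D3 LPS replicate 2 also had 0.48 with D1 LPS replicate 3, so pairing is not shown.

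Among the 71 genes named by rule, reversals were limited to 3 that never passed. Genes described only as list members were not counted there. Some of these also changed sign with the GC covariate, such as Vwf (-0.66 to 0.03) and Tfrc (0.11 to -0.21). Car4 went to 0.02 with the GC covariate and to 0.06 with block and covariate. Tlr4 went to -0.22 with the covariate, -0.17 with the smooth offset, -0.12 without the 10 libraries and -0.10 with block and covariate, and ranged over -0.17 to 0.24 with 1 library left out. Marco went to -0.12 with the block and ranged over -0.72 to 0.71. The cause of these changes was not tested.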
